A study of Mus musculus with 6 samples.

Results

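Of 384 protein-coding mouse genes on chromosomes 1 to 19 named Zfp and a number, with Zfp36 left out, 155 were expressed. The cells were labelled as rod photoreceptors and sorted on postnatal day 10. Expressed means at least 5 CPM (counts per 1e6 counts of the library) in all 3 control libraries or in all 3 libraries labelled Jun knockdown. This is 40.4% of the Zfp genes, beside 28.5% of all protein-coding genes on these chromosomes (5938 of 20825). The groups differed by plasmid alone as far as the labels say, given to newborn mice by electroporation into the living eye (day 0). Control retinas received a plasmid for a short hairpin RNA (shRNA) of scrambled sequence, and the others one for a Jun shRNA (2.5 µg/µl, in a volume of 0.4 µl). In both groups a vector with EGFP behind the promoter of Nrl, the rod fate factor, was given at 1.5 µg/µl, and EGFP-positive cells were sorted. The labels do not say from which animals or litters a library came, so a p-value reflects only how these libraries vary, which may be technical.

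Most Zfp genes code for proteins with C2H2 zinc fingers, small zinc-bound folds repeated in tandem that read DNA, and in some cases RNA. Many carry a KRAB domain, which recruits the co-repressor Trim28 and, through it, Setdb1, histone deacetylases and heterochromatin proteins, and many of these silence retroelements. They arose by local duplication and lie in clusters of similar genes. Other Zfp genes hold no KRAB domain and act at promoters, in RNA processing or in ubiquitin signalling.

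Control libraries held 46239300, 105801000 and 32150100 counts and the labelled libraries 13211300, 13325500 and 13998400, so depth and group cannot be told apart. At these depths 5 CPM was 66.1 to 529 counts. Jun itself stood at 6.46, 5.86 and 7.16 CPM in controls against 1.80, 17.6 and 19.3 CPM in the labelled libraries, where only 1 of 3 was lower, so the libraries are named by their label throughout. The summed level of 10 rod markers was 83315 to 105652 CPM in controls and 6935 to 10014 CPM in the labelled libraries, and 9 of the 10 did not overlap. Markers of 8 microglial genes summed to 747 to 1018 CPM in controls and to 1.65 to 5.25 CPM in the labelled libraries (6 of 8 did not overlap). Vascular and blood and Müller glia markers were also lower in sum (3 of 5 in each list did not overlap). Hba-a1 stood at 48.3 to 123 CPM in controls and at 0 in every labelled library. The Müller marker Slc1a3, however, overlapped, at 63.3 to 158 against 104 to 130 CPM. Sums of 5 cone markers (1362 to 3915 against 595 to 1417 CPM) and of 5 amacrine and ganglion markers (10.5 to 62.6 against 0.369 to 16.1 CPM) overlapped too. Of 4 pigment epithelium markers, Rpe65 and Best1 were at or near 0 in both groups (at most 0.0427 CPM), and the lower sum of that list rested on Krt18 and on Rlbp1, which the Müller glia list also holds. In contrast, 5 bipolar markers summed higher (270 to 366 against 466 to 824 CPM, 3 of 5 did not overlap). Of the 12815 genes tested below, 15.7% were lower without overlap and 12.6% higher. The part of these differences in the Zfp values was not tested, and fewer cells of a type and less RNA per cell cannot be told apart in such libraries.

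Levels are given as CPM on totals scaled by TMM (trimmed mean of M values, a correction for the makeup of each library), in the order control 1, 2, 3 and labelled Jun knockdown 1, 2, 3. The 155 genes spanned means of 6.65 to 391 CPM over the 6 libraries, with a median of 54.5 CPM. Per kilobase of exon, levels ran from 0.849 to 66.3 CPM with a median of 11.4. The highest per kilobase was Zfp938, followed by Zfp119b (59.0), Zfp207 (58.7), Zfp932 (54.9), Zfp868 (50.6) and Zfp617 (46.5). Zfp207, a spindle and splicing protein also called BuGZ, was the one of these without a KRAB-like stretch. It stood at 551, 418 and 306 CPM in controls against 259, 313 and 500 CPM in the labelled libraries. Its groups overlapped. Zfp938, KRAB-like, stood at 251, 134 and 102 CPM against 99.1, 51.6 and 209 CPM, and Zfp932, which binds and silences retroelements, at 147, 145 and 74.7 against 70.6, 275 and 366 CPM. Neither separated the groups. The genes just above the limit were Zfp317, Zfp383 and Zfp780b, with a lowest value of 5.20, 5.22 and 5.39 CPM of the library total in the better group. Just below it lay Zfp334, Zfp64 and Zfp608, at 4.52, 4.41 and 4.36 CPM.

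Whether a gene reached the limit varied between single libraries. It was reached in all 6 libraries by 68 genes, in controls only by 52 and in the labelled libraries only by 35. Of the 52, 29 missed it in just 1 labelled library, and 34 missed it in labelled library 3. Of the 35, 29 missed it in just 1 control library, of which 16 in control 3. Only 9 of the 52 and 2 of the 35 were below the limit in every library of the other group. Zfp946, a KRAB-like gene, shows this pattern, with 75.6, 64.3 and 67.2 CPM in controls and 141, 98.8 and 0.272 CPM in the labelled libraries. Zfp354c is its counterpart, with 23.7, 102 and 0.068 CPM in controls and 22.8, 127 and 20.4 CPM in the labelled libraries. Both genes were high in 5 libraries and near 0 in the sixth. Among the 68 genes the median SD of log2(CPM + 1) within a group was 0.75 in controls and 0.97 in the labelled libraries. Over all 3595 genes at 5 CPM in 6 libraries it was 0.58 and 0.69.

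**Figure D1:**
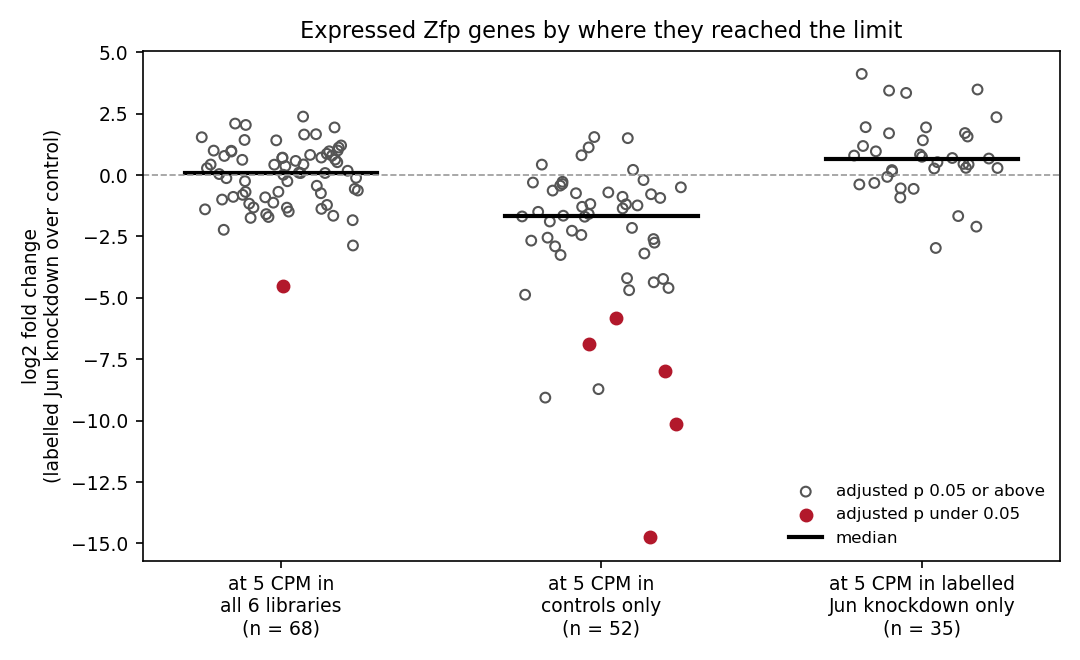
Log2 fold change (y axis, labelled Jun knockdown over control, TMM scaling) of the 155 expressed Zfp genes, in columns by where each reached 5 CPM. Filled points are the 6 genes with an adjusted p under 0.05 and black lines the medians, 0.09 for the 68 genes at the limit in all 6 libraries. The other columns were chosen by level in 1 group, which sets their direction.

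The libraries were compared gene by gene with edgeR's quasi-likelihood test over 12815 genes, with Benjamini-Hochberg adjustment over all of them. Of the 384 Zfp genes by name, 288 were tested, and 6 (2.08%) fell and 0 rose at an adjusted p under 0.05. Over all genes 214 (1.67%) changed, 173 (1.35%) of them lower and 41 (0.320%) higher. The Zfp share therefore lay near the background. At an unadjusted p under 0.05 stood 34 of the 288 Zfp genes, beside 16.8% of all genes. All 6 genes that fell are among the 155, and 5 of them reached the limit in controls only. Among the 155, 0 passed in any fit that left out 1 control library, and 1, Zfp35, passed in each that left out 1 labelled library. Other scalings moved the balance of all calls, to 89 lower and 55 higher with the upper quartile and to 79 and 68 with library totals, and left 3 Zfp genes lower and 0 higher in both. Those 3 by library totals were Zfp35, Zfp738 and Zfp784. Of the 155 genes DESeq2 called 11 lower and 2 higher (all genes 12.1%), and limma-voom 6 and 1 (all genes 3.45%). Of the 6 genes limma-voom called Zfp35, Zfp420 and Zfp784 and did not call Zfp26, Zfp738 and Zfp873.

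Zfp738 (ENSMUSG00000048280, chromosome 13, 67658685 to 67687071, minus strand, GRCm38) was the one gene at the limit in all 6 libraries that fell. This KRAB-like gene with 20 fingers stood at 314, 137 and 200 CPM in controls against 10.7, 8.99 and 8.52 CPM in the labelled libraries. Every control was above every labelled library. The log2 fold change was -4.53 (SE 0.73, edgeR adjusted p = 0.0215, n = 3 against 3, in all 3 labelled libraries), with adjusted p between 3.58e-05 and 0.537 over the alternatives tried. The upper end came from counting the gene as the sum of its deposited transcripts, which gave 45.0, 41.2 and 41.2 CPM against 19.9, 16.8 and 12 CPM and a log2 fold change of -1.39. The groups did not overlap in that count either. One transcript annotated as a retained intron held 92.8%, 27.3% and 64.0% of the transcript counts in controls and 0%, 0% and 2.72% in the labelled libraries. Its only coding transcript above 5 CPM, in contrast, overlapped, at 3.21, 27.9 and 14.9 against 19.9, 16.8 and 11.7 CPM.

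The 5 other genes that fell reached the limit in controls alone, so their levels are given as a description. Zfp35 (ENSMUSG00000063281, chromosome 18, 23989632 to 24005376), a gene with 17 fingers and no KRAB-like stretch, stood at 98.6, 119 and 84.5 CPM against 0.322, 0.526 and 0.308 CPM. Zfp26 (ENSMUSG00000063108, chromosome 9, 20428449 to 20460162), a KRAB-like gene with 22 fingers, stood at 39.4, 195 and 212 CPM against 3.57, 2.81 and 1.47 CPM. Zfp873 (ENSMUSG00000061371, chromosome 10, 82048123 to 82064745), KRAB-like with 16 fingers, stood at 123, 49.6 and 191 CPM against 1.57, 0.133 and 1.44 CPM. In all 3 genes the controls lay far above the labelled libraries, with log2 fold changes of -7.99, -5.82 and -6.86. Zfp420 (ENSMUSG00000058402, chromosome 7, 29859979 to 29877292, 19 fingers) had 24, 37.7 and 91.3 CPM in controls and 2 counts in all over the labelled libraries. That is a ratio of 1053 (95% counting interval 291 to 8699, counting error only). The transcript table gave the same picture for Zfp26, at 54.1, 144 and 149 CPM against 5.79, 2.08 and 2.07 CPM.

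**Figure D2:**
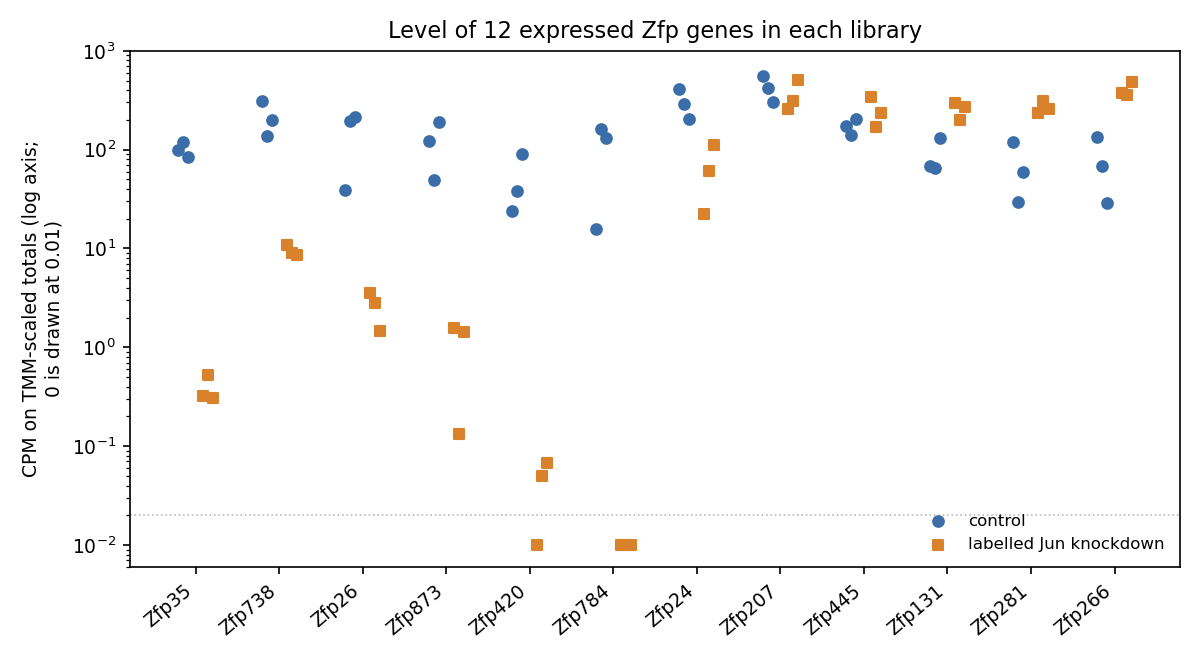
Level of 12 expressed Zfp genes in each library (y axis, CPM on TMM-scaled totals, log axis, 0 drawn at 0.01), with circles for control and squares for labelled Jun knockdown. The first 6 genes fell in edgeR's test. Zfp24, Zfp131, Zfp281 and Zfp266 did not overlap between groups in the deposited gene table but did not pass, and Zfp207 and Zfp445 overlapped.

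Zfp784 (ENSMUSG00000043290, chromosome 7, 5034439 to 5038446, minus strand), with 6 fingers, is a special case. It had 15.8, 161 and 132 CPM in controls and 0 counts in every labelled library, at least 1932-fold lower if the group is given a floor of 3 counts in sum. Its neighbour Zfp865 (ENSMUSG00000074405, 5020376 to 5036768, plus strand) overlaps it on the other strand, and 94.8% of the 31-base words of Zfp784 transcripts occur in other genes, most of them in Zfp865. Zfp865 had 1.62, 4.81 and 0.265 CPM in controls and 91.7, 11.8 and 12.9 CPM in the labelled libraries. Zfp865 reached the limit in the labelled libraries only, a choice that partly sets its direction. It did not pass edgeR's test (adjusted p = 0.267), while DESeq2 called it higher. The values of the 2 genes thus lay in opposite directions, and the sum of the pair, 17.4, 166 and 132 against 91.7, 11.8 and 12.9 CPM, overlapped between groups. No step that marks strand is given in the labels' protocols, so reads from this pair cannot be told apart where the genes overlap. Zfp955a and Zfp955b, near-copies on chromosome 17 that share 66.0% and 63.5% of their words with other genes, had a sum of 51.6, 132 and 76.0 CPM in controls and 0.128, 0 and 0.367 CPM in the labelled libraries. Their sum did not overlap. Neither gene passed edgeR's test (adjusted p = 0.0602 and 0.0582), while DESeq2 and limma-voom called both lower. Both reached the limit in controls only, a choice that partly sets this direction. In all, 10 of the 155 genes shared over 50% of their words with other genes, and 50 overlapped a gene on the other strand.

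**Figure D3:**
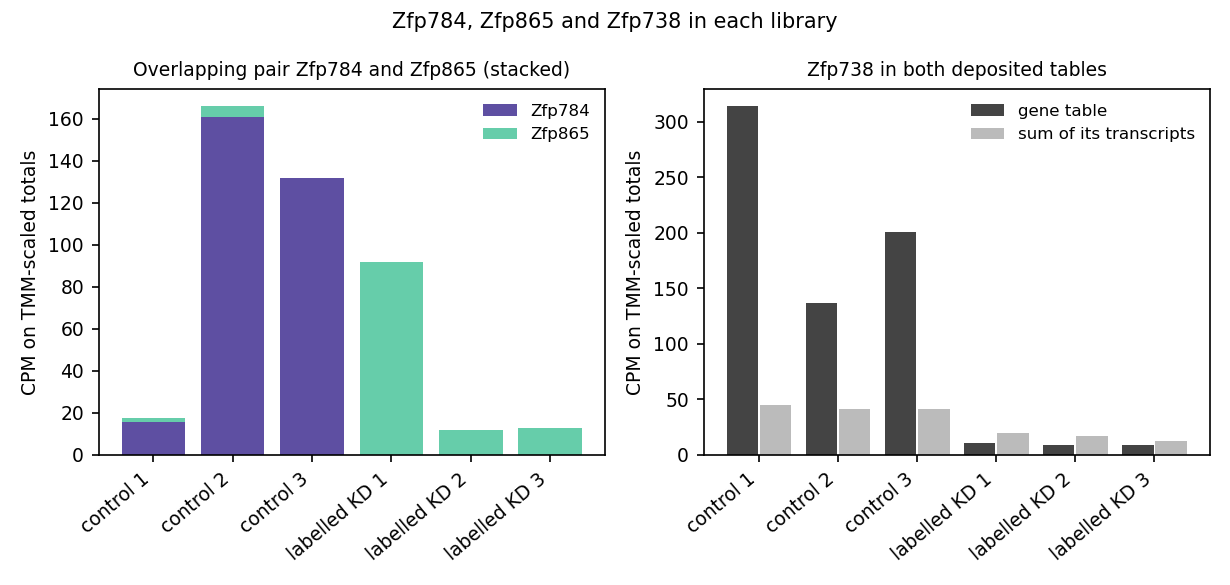
Left, CPM on TMM-scaled totals of Zfp784 and its antisense neighbour Zfp865 in each library, stacked, where the sum overlaps between groups. Right, Zfp738 in the deposited gene table and as the sum of its deposited transcripts, where the gene value in controls is 137 to 314 CPM and the transcript sum 41.2 to 45.0 CPM.

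The 68 genes at the limit in all 6 libraries were not chosen by a difference between groups. Of these, 30 had a log2 fold change below 0 and 38 above, with a median of 0.09, beside -0.12 over all tested genes. Every labelled library lay below every control in 9 genes (13.2%) and above in 10 (14.7%), beside 15.7% and 12.6% of all genes. After Zfp738 the largest negative values belonged to Zfp433, Zfp24 and Zfp945. Zfp24, a factor of the SCAN family known from myelination, stood at 414, 291 and 206 CPM against 22.5, 61.4 and 110 CPM (log2 fold change -2.23, SE 0.68, edgeR adjusted p = 0.143). Zfp433, a KRAB-like gene, stood at 149, 96.7 and 146 CPM against 6.32, 12.3 and 35.0 CPM (-2.87, SE 0.92, edgeR adjusted p = 0.159), and it shares 87.1% of its words with other genes. Both were lower in every labelled library and neither passed the test, although Zfp24 did without the low-count filter (adjusted p = 0.0472). Zfp945 overlapped, at 58.4, 113 and 266 CPM against 47.0, 69.5 and 5.71 CPM.

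At the other end stood Zfp266, Zfp983, Zfp871 and Zfp281. Zfp266 (ENSMUSG00000060510, chromosome 9, 20495068 to 20521417, minus strand), a KRAB-like gene with 9 fingers, stood at 134, 68.7 and 29.0 CPM in controls against 371, 356 and 481 CPM in the labelled libraries. Every labelled library exceeded every control. The log2 fold change was 2.38 (SE 0.62, edgeR adjusted p = 0.0891), and it passed the threshold with limma-voom (adjusted p = 0.0398) and with a filter of 5 CPM in 3 libraries (adjusted p = 0.0401). As the sum of its deposited transcripts, however, Zfp266 stood at 149, 59.2 and 49.2 CPM against 118, 103 and 84.9 CPM, which overlapped, with a log2 fold change of 0.27 (edgeR adjusted p = 0.872). Zfp281, a GC-rich promoter factor known from pluripotent cells, stood at 120, 29.2 and 59.7 CPM against 234, 310 and 258 CPM (1.94, SE 0.64, edgeR adjusted p = 0.172). Zfp871, KRAB-like, stood at 33.7, 18.7 and 101 against 63.0, 203 and 364 CPM, with overlap, and Zfp983, KRAB-like, at 21.2, 9.47 and 9.0 against 95.9, 47.7 and 25.9 CPM, without. Apart from those 2 settings for Zfp266, these 4 genes had an adjusted p of 0.05 or above under the alternatives tried.

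Among genes at the limit in the labelled libraries only, the highest there was Zfp950, a KRAB-like gene, at 3.09, 49.6 and 24.8 CPM in controls and 128, 189 and 79.4 CPM in the labelled libraries. Zfp772, also KRAB-like, stood at 4.45, 10.4 and 5.02 CPM against 135, 60.6 and 26.8 CPM. In both, every labelled library lay above every control, a direction that the choice of genes by their level there partly sets. As transcript sums Zfp950 overlapped, at 1.82, 83.8 and 10.4 CPM against 71.0, 61.7 and 159.7 CPM. DESeq2 alone of the 3 tools called Zfp772 higher. The mean of Zfp532, a zinc finger partner of Zfp592 and Zfp687, rested on 1 library, with 0.631, 11.9 and 9.14 CPM against 206, 6.06 and 8.07 CPM. Without that library its log2 fold change was -0.067 in place of 3.34. Among genes at the limit in controls only, the highest in controls were Zfp119b, Zfp617, Zfp637 and Zfp422. Zfp637 stood at 157, 197 and 144 CPM against 136, 36.2 and 3.91 CPM, and Zfp617, KRAB-like, at 149, 66.1 and 309 CPM against 0.960, 261 and 58.6 CPM. In both genes the labelled libraries differed more among themselves than the controls did. The choice of these genes asks for a value below the limit in at least 1 labelled library, which partly sets that spread.

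By known role, 6 lists of Zfp genes were described, and 0 genes of any list passed edgeR's test in either direction. Of 14 promoter and chromatin architecture factors, 12 were tested, with 11 above 0 and a median log2 fold change of 1.06, beside -0.12 over all genes. Of these, 3 had an unadjusted p under 0.05, and DESeq2 and limma-voom called 0. The shares of all genes to set beside each list were 16.8% at an unadjusted p under 0.05, 12.1% by DESeq2 and 3.45% by limma-voom. Zfp131, a factor with a BTB domain, stood at 67.8, 64.8 and 130 CPM against 296, 199 and 268 CPM (1.54, SE 0.55, edgeR adjusted p = 0.200). Zfp644, a partner of the histone methyltransferase G9a whose human counterpart is mutated in familial high myopia, stood at 148, 106 and 59.4 CPM against 229, 155 and 610 CPM (1.66, SE 0.66, edgeR adjusted p = 0.246). Neither overlapped in the gene table. As transcript sums Zfp644 did, at 248.7, 151 and 35.0 CPM against 278, 126 and 430.3 CPM, with a log2 fold change of 0.95. Zfp143, a promoter factor found at chromatin loop anchors, was the 1 below 0, at 64.6, 175 and 99.4 CPM against 39.0, 53.3 and 11.6 CPM. Zfp91, also a ubiquitin ligase, stood at 13.9, 17.4 and 21.9 CPM against 35.3, 52.0 and 56.1 CPM, again without overlap.

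Of 15 genes in RNA binding, splicing and translation, 13 were tested, with 6 below 0 and 7 above. An unadjusted p under 0.05 was found for 2 of the 13, beside 16.8% of all genes. DESeq2 called 1 lower, Zfp385a, and limma-voom 0. Zfp638, an RNA-binding protein of the nuclear matrix, stood at 89.7, 91.8 and 33.2 CPM against 209, 97.2 and 266 CPM, without overlap in the gene table. As transcript sums it overlapped, at 85.4, 171 and 46.0 CPM against 86.3, 92.0 and 156.5 CPM, and the log2 fold change was 0.13 in place of 1.41. Zfp36l2, a CCCH-type protein that speeds decay of messages with AU-rich ends, stood at 54.3, 15.7 and 67.4 CPM against 110, 11.8 and 129 CPM, with overlap. Its relative Zfp36l1 reached the limit in the labelled libraries only, at 0.817, 4.62 and 0 CPM against 13.2, 29.9 and 16.2 CPM. Zfp385a, which binds p53 and messages, had 43.6, 147 and 12.3 CPM against 1.22, 8.02 and 0.612 CPM. It reached the limit in controls only, which partly sets its direction. Genes of this list thus lay on both sides of 0.

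Of 11 genes that silence imprinted loci and retroelements, 6 were tested and 3 were expressed. At an unadjusted p under 0.05 stood 1, Zfp708, which is not expressed by the limit used and which DESeq2 called lower and limma-voom did not. Zfp445, which keeps imprints, stood at 175, 141 and 202 CPM against 343, 170 and 233 CPM, with overlap. Zfp57, which also keeps imprints, was at or below 0.635 CPM in every library. Zfp961, KRAB-like, stood at 32.7, 46.3 and 42.2 CPM against 0.423, 14.5 and 17.8 CPM. In the neural development list, 6 of 11 were tested, with 0 at an unadjusted p under 0.05, 1 (Zfp804a, outside the 155) called higher by DESeq2 and 0 by limma-voom. Zfp536, a repressor of neuronal differentiation, stood at 69.3, 62.7 and 69.8 CPM against 48.2, 43.5 and 34.0 CPM without overlap (log2 fold change -0.68, edgeR adjusted p = 0.707). Zfp521, known from neural progenitors, ran from 4.86 to 80.5 CPM in the labelled libraries alone. In the list for ubiquitin, SUMO and signalling 7 of 7 were tested and in that of human eye disease orthologues 3 of 5, each with 1 gene (Zfp110 and Zfp644) at an unadjusted p under 0.05 and 0 calls by DESeq2 or limma-voom. Of 23 tested genes of the Trim28 co-repressor complex 0 passed edgeR's test, 6 had an unadjusted p under 0.05 (16.8% of all genes did), and DESeq2 called 3 lower (12.1% of all genes were called) and limma-voom 0. Trim28 itself stood at 10.3, 9.14 and 15.3 CPM against 0.805, 54.6 and 66.8 CPM, and Rbbp4, a histone-binding subunit, at 254, 153 and 161 CPM against 32.2, 32.1 and 16.1 CPM (edgeR adjusted p = 0.0760). Among 21 tested C2H2 factors of other names 0 passed edgeR's test, 1 had an unadjusted p under 0.05, and DESeq2 called 1 higher and limma-voom 0.

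Of the 155 genes, 90 (58.1%) had a KRAB-like stretch in a translated transcript, beside 59.6% of the 384. The median number of C2H2 fingers was 10 and the highest 33, in Zfp462, and 5 genes had none by the pattern used. KRAB-like genes had a median of 12.3 CPM per kilobase of exon and the others 7.25. KRAB-like genes were 37 of the 68 at the limit in all 6 libraries (54.4%), 37 of the 52 in controls only (71.2%) and 16 of the 35 in the labelled libraries only (45.7%). By name alone, the median log2 fold change was -0.57 over 169 tested KRAB-like genes and -0.13 over 119 others, with 3 genes that fell in each.

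The 384 genes formed 32 chromosomal clusters of 3 or more genes whose neighbouring starts lay at most 500 kb apart. Clusters held 234 genes, of which 86 (36.8%) were expressed, beside 46.0% of the 150 genes outside. Of KRAB-like expressed genes 78.9% lay in clusters, and of the others 23.1%. Chromosomes 7 and 17 held most, with 29 and 27 expressed genes. All 6 genes that fell in edgeR's test lay in clusters, 6 of 174 tested there (3.45%, beside 1.67% of all genes called) and 0 of 114 outside. An unadjusted p under 0.05 was found for 23 of the 174 and 11 of the 114, beside 16.8% of all genes. DESeq2 called 18 lower and 6 higher in clusters and 5 and 3 outside, and limma-voom 6 and 1 in clusters and 0 outside. The difference between genes inside and outside clusters was not tested. In 10 of the 12 clusters with 3 or more expressed genes, log2 fold changes lay on both sides of 0.

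The chromosome 9 cluster (20345136 to 20605409) shows how neighbours differed. All 5 of its Zfp genes, each KRAB-like, were expressed. Zfp26 fell there, as given above, while Zfp266, the next but one of these, stood higher in each labelled library in the gene table but not as the sum of its transcripts. Zfp426 between them stood at 103, 99.1 and 33.0 CPM against 36.4, 21.1 and 88.4 CPM. Zfp560 stood at 90.0, 31.1 and 63.7 CPM against 68.1, 121 and 181 CPM, and Zfp846 at 204, 55.3 and 6.24 CPM against 0.959, 406 and 345 CPM. These 3 overlapped. The summed level of the 5 genes, 570, 449 and 343 CPM against 480, 907 and 1096 CPM, overlapped too.

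The 3 genes of the chromosome 18 cluster (23954692 to 24020810), Zfp397, Zfp35 and Zfp24, all lacked a KRAB-like stretch. All were lower in every labelled library than in every control, as were 15.7% of all tested genes. Zfp35 reached the limit in controls only, which partly sets its direction. Zfp397 stood at 70.9, 33.4 and 52.2 CPM against 16.4, 26.7 and 16.3 CPM, and the sum of the 3 at 583, 444 and 343 CPM against 39.3, 88.6 and 127 CPM. In the chromosome 8 cluster (71882019 to 71993792), all 4 genes had log2 fold changes below 0, from -1.89 to -0.27. All 4 reached the limit in controls only, a choice that partly sets that direction. Their sum, 395, 240 and 425 against 230, 357 and 105 CPM, overlapped. The largest cluster, on chromosome 17 (21008903 to 23599487), had 14 of 23 genes expressed, all KRAB-like, 9 above 0 and 5 below, and 0 passed edgeR's test. On chromosome 10 (81704825 to 82241280) all 4 genes were expressed. There Zfp873 fell, Zfp433 and Zfp938 are given above, and Zfp781 stood at 31.3, 90.5 and 226 CPM against 266, 159 and 138 CPM. On chromosome 13 (67038596 to 67827002) Zfp738 fell among 6 expressed of 23 genes.

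**Figure D4:**
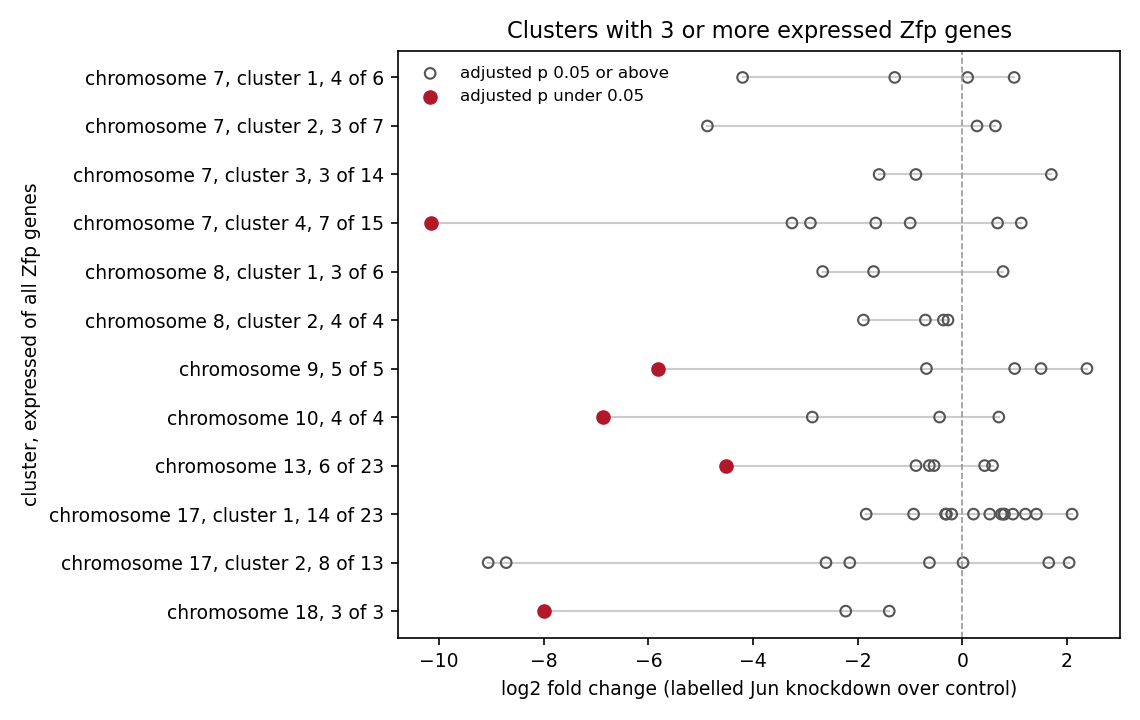
Log2 fold change (x axis, labelled Jun knockdown over control) of each expressed Zfp gene in the 12 clusters with 3 or more of them, 1 row a cluster, with the number expressed of all its Zfp genes. Filled points passed edgeR's test. Only the second chromosome 8 cluster and the chromosome 18 cluster lie wholly below 0. All 4 genes of the former and 1 of the 3 of the latter reached the limit in controls only, which partly sets their direction.

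The sign of the family's summed level depended on scaling. By library totals, the summed level of all 384 genes was 11775, 12348 and 10641 CPM in controls and 13045, 15170 and 13420 CPM in the labelled libraries, 11588 ± 869 against 13879 ± 1134 CPM (SD, n = 3 each). Every labelled library was higher (two-sided exact permutation p = 0.1, the smallest that 3 against 3 allow). On TMM-scaled totals the same sums were 14932, 14507 and 12313 CPM in controls and 11731, 11402 and 12290 CPM in the labelled libraries, 13917 ± 1406 against 11808 ± 449 CPM. There every labelled library was lower (exact permutation p = 0.1), and the nearest pair was 12290 and 12313 CPM. The scaling moved the median of all genes by 0.50 on the log2 scale. The median of the 155 genes was -0.30 with TMM and 0.21 with library totals, or -0.19 and -0.18 relative to the median of all genes under the same scaling. With the median of ratios and the upper quartile that relative value was -0.16 and -0.18. With the filter of 5 CPM in 3 libraries it was 0.058. All tested genes were not chosen by the limit of 5 CPM, so these relative values do not compare like sets. Protein-coding genes on chromosomes 1 to 19 at the same limit had a median of -0.40 with TMM, below that of the 155.

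**Figure D5:**
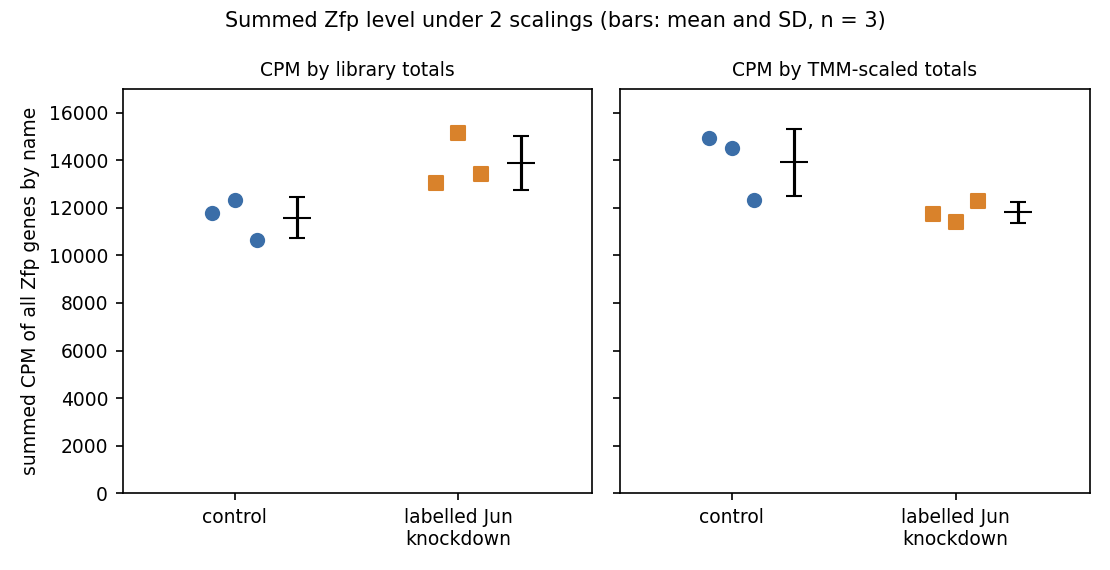
Summed CPM of the 384 Zfp genes by name in each library (y axis), by library totals on the left and on TMM-scaled totals on the right, with mean and SD of 3 libraries. The labelled libraries are higher on the left and lower on the right.

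The deposited transcript counts gave a second readout. The choice of genes used gene levels and not these shares, but the level of a gene sets its weight in a pooled share. The pooled shares of the 155 are therefore not fully independent of the choice. Transcripts annotated as retained introns held 2.64%, 3.08% and 5.18% of the transcript counts of the 155 genes in controls and 4.53%, 7.44% and 7.08% in the labelled libraries. The groups overlapped (3.63 ± 1.36% against 6.35 ± 1.58%, SD, n = 3, exact permutation p = 0.2). Over all protein-coding genes the share was 2.95%, 3.70% and 3.57% against 8.32%, 10.0% and 8.33%, with no overlap (exact permutation p = 0.1). The share over all genes less that of the Zfp genes was 0.307, 0.616 and -1.60 percentage points in controls and 3.79, 2.61 and 1.25 in the labelled libraries, again without overlap (exact permutation p = 0.1). Of 69 Zfp genes with such a transcript, 40 had a higher mean share in the labelled libraries, 26 a lower one and 3 an equal one. The groups did not overlap in only 5 of those higher and 3 of those lower, with no share over all genes to set beside these. Some shares rested on very few counts, as in Zfp420, with 100% in labelled library 3 at a transcript sum of 0.0654 CPM. Zfp942 went from 0.637%, 0.0819% and 0.156% to 93.8%, 35.0% and 5.94%, and Zfp248 from 6.64%, 4.77% and 0% to 59.7%, 48.6% and 29.0%. Zfp738 went the other way, as given above, and Zfp26 followed it with overlap, at 14.2%, 74.9% and 82.5% against 0%, 39.4% and 6.32%.

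Jun binds DNA as part of AP-1, to TGANTCA or, with ATF partners, to TGACGTCA, the cyclic AMP response element. Both words read the same on both strands, and neither contains the other. The table of RefSeq promoters (GRCm38.p6, 250 bases before to 50 after a start) had entries for 129 of the 155 genes. TGANTCA occurred in 8 of these (6.20%), beside 8.97% of 27025 genes, and TGACGTCA in 4 (3.10%), beside 2.03%. Of the 6 genes that fell, 5 were in the table and 0 held either word. The stretches shown are the 120 bases before the start, with the word in capitals, for 3 genes with each word. Zfp266 and Zfp426 are neighbours in the chromosome 9 cluster and hold the same word 17 and 22 bases before their starts.
Zfp266 (chr9:20521420-20521539, minus strand): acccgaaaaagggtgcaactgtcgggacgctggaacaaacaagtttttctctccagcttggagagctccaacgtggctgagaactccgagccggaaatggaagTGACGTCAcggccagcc
Zfp426 (chr9:20492747-20492866, minus strand): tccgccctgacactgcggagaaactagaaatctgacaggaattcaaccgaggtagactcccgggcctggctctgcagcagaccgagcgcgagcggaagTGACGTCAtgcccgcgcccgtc
Zfp868 (chr8:69625176-69625295, minus strand): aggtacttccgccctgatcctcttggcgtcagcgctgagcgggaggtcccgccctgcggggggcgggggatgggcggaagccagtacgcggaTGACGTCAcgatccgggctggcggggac
Zfp871 (chr17:32788288-32788407, minus strand): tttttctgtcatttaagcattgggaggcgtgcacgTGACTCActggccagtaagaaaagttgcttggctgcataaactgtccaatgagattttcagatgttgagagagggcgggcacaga
Zfp385b (chr2:77703273-77703392, minus strand): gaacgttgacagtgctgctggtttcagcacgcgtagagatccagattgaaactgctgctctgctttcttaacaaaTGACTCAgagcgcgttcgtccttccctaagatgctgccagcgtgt
Zfp790 (chr7:29815952-29816071, plus strand): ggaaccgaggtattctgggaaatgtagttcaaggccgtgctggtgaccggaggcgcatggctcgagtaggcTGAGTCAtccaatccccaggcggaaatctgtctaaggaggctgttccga

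The values below are of the genes shown, 3 of the 4 with TGACGTCA and 3 of the 8 with TGANTCA. Most of them overlapped between groups, so no direction is drawn from them for either word. With TGACGTCA, Zfp266 was higher without overlap in the gene table and overlapped as transcript sums, Zfp426 overlapped, and Zfp868 stood at 92.1, 94.6 and 137 CPM against 75.2, 94.0 and 386 CPM. With TGANTCA, Zfp871 overlapped, Zfp385b stood at 69.8, 41.7 and 14.5 CPM against 24.4, 49.5 and 41.6 CPM, and Zfp790 at 10.3, 55.5 and 29.0 CPM against 9.13, 0.732 and 0.0848 CPM. Promoters of the expressed genes differed more in general makeup from those of all genes, which were not limited by level. The word CCAAT was present in 56.6% of the 129 and in 41.1% of all genes, and an observed over expected CpG ratio above 0.6 in 61.2% and 38.3%. That CpG ratio was found in 45.7% of 81 KRAB-like genes and in 87.5% of 48 others, and CCAAT in 61.7% and 47.9%. Other genes at the same limit were not compared. A match is a description of letters and not of binding.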

How the data were processed

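RNA was measured in 6 libraries, 3 a group, grouped and numbered as labelled. The authors deposited gene tables of estimated counts and of a normalised signal, and a transcript table of estimated counts. The normalised table, whose values are the gene counts times 1 factor per library, gave gene names, biotypes and positions only. Per the submitters' processing notes, Trimmomatic 0.39, kallisto 0.44.0 and edgeR 3.28.1 were used, with no role stated here, and no source used here gives the build. Coordinates are the deposited ones, and all 384 Zfp genes were found in GENCODE vM21 (GRCm38), 372 of them at the same positions. Of 842 values of the 155 genes with a transcript sum over 50 counts, 40.1% lay within 10% of that sum, so the deposited gene counts are not plain sums of the transcript counts. No sample column was left out (0 columns).

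Counts were rounded, filtered (filterByExpr), TMM-scaled and put through edgeR 4.0.16 (R 4.3.3, quasi-likelihood, group only), and the standard error was the size of the log2 fold change over the square root of F. Alternatives were other scalings, filters and thresholds, DESeq2 1.42.0, limma-voom (limma 3.58.1), thinning to the smallest total, replicate number as a block and dropping each library in turn. Sums of transcripts as gene counts were added after the data were seen. The fit was tested on simulated data. Exact permutation tests were two-sided. Intervals (95%, Clopper-Pearson) and the floor of 3 counts cover counting error only, because no molecular identifiers mark independent molecules. Fingers and KRAB-like stretches (at least 8 of 11 fixed positions) were counted in translated GENCODE transcripts, which can miss diverged domains, and shared words were 31 bases on either strand.

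The genes, lists and tests were chosen with earlier results of these data known. Genes named were those past the threshold, the highest per kilobase, the largest changes in each direction, the highest at the limit in 1 group only, members of role lists, the highest of each cluster and those nearest the limit. Zfp57, Zfp91, Zfp143, Zfp248, Zfp354c, Zfp36l1, Zfp385a, Zfp385b, Zfp397, Zfp426, Zfp560, Zfp708, Zfp790, Zfp804a, Zfp846, Zfp865, Zfp942, Zfp946, Zfp955a and Zfp955b fall outside that rule and were chosen after their values were seen.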

Additional observations from a re-analysis of the deposited data

How the results depend on the processing

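Every labelled library was shallower than every control, and a value of 5 CPM rested on as few as 66.1 counts. After thinning to the smallest total, 154 of all genes and 5 of the 155 Zfp genes were called. Among all genes edgeR called 214, and 737 without a low-count filter, 351 with a filter of 5 CPM in 3 libraries, 1955 with DESeq2, 442 with limma-voom, 644 at an adjusted p under 0.1 and 36 to 110 with 1 library left out. Of the 155 Zfp genes edgeR called 6, and 3 with the upper quartile, 3 with library totals, 10 without the filter, 13 with DESeq2 and 0 to 1 with 1 library left out. Leaving out a library removes replicates as well as that library, and the cause of the other shifts was not tested. The number of expressed genes was 131 to 170 and that of clusters 30 to 32 under the limits, totals and gaps tried.

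The median log2 fold change of the 155 genes, -0.30, was -0.13 with the median of ratios, 0.090 with the upper quartile, 0.21 with library totals, -0.42 without the filter, 0.035 with the 5 CPM filter, -0.72 with limma-voom, 0.0074 after thinning and -0.44 to -0.024 with 1 library left out. The difference in summed CPM, 2291, was -2109 on TMM-scaled totals and 1645 to 2708 with 1 library left out. The difference in retained-intron share, 2.71 percentage points, was 2.17 to 3.62 with 1 library left out, 2.69 over all Zfp genes by name and 0.0730 as a median over genes. Of 25 genes followed through 16 alternatives, 3 reversed, each with 1 library left out. Without control 3, Zfp617 had 0.019 (-2.58 to 0.019 over such fits) and Zfp677 -0.027 (to 1.88), and without labelled library 1, Zfp532 had -0.067 (to 3.93).

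Libraries of the same number did not deviate together (correlations of 0.0004, 0.008 and -0.015), and the best match of a library was not always its own number. Such correlations cannot show whether libraries of the same number shared animals or a litter, which the labels do not state. With the number as a replicate block, 97 genes and 0 of the 155 were called, and the median of the 155 was -0.60.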

Other observations

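Genes named Zfp that fell outside the choice were few at these levels. Zfp36, which codes for tristetraprolin, a CCCH-type protein that speeds the decay of inflammatory messages and an immediate early gene, stood at 37.4, 14 and 30.9 CPM in controls against 0.139, 0.977 and 0.119 CPM in the labelled libraries. Its groups did not overlap, and its log2 fold change of -6.05 did not pass edgeR's test (adjusted p = 0.121). Of 9 X-linked Zfp genes, 2 reached the limit, and both varied widely within a group. In the labelled libraries Zfp182 had 178, 13.2 and 0.566 CPM, and Zfp280c 24.3, 235 and 60.2 CPM. Zfp992 is listed a second time on a patch sequence with the same values. Among 22 genes of other biotypes, 0 reached the limit. Among these the antisense gene Zfp335os had 16.9, 7.34 and 1.46 CPM in controls and 0, 0 and 0.0587 CPM in the labelled libraries, and its reads cannot be told apart from those of its partner.

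By name alone, 31 Zbtb genes and 12 Zscan and Zkscan genes, the other large C2H2 families, were tested, and 0 of either passed edgeR's test. At an unadjusted p under 0.05 stood 2 and 1 of them, beside 16.8% of all genes. Their median log2 fold changes were -0.36 and -0.51, beside -0.41 for the 288 tested Zfp genes. Numbers of Zfp genes with any count were 349, 345 and 342 in controls and 312, 324 and 345 in the labelled libraries. After thinning to the smallest total they were 313, 311 and 321 against 312, 321 and 341, which overlapped.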
